A study of Rattus norvegicus with 20 samples.

Results

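Microglia are the resident macrophages of the brain, and 33 genes that mark them or belong to the complement system are described here in the accumbens shell, a part of the ventral striatum involved in reward. The members are a fixed list of gene symbols, each represented by its brightest probe set (by the mean of the 20 arrays), out of 14217 genes that have a probe set of their own. Of the 33 members, 29 had such a probe set and 22 of these were bright enough to be tested. Cd68, Fcgr2b, Ptprc, Cd74, Tlr4, Cd14 and C3 were dim, with a mean log2 value under 6.65, below which lay 33.3% of the probe sets. P2ry13, Selplg and Spi1 had no probe set under their symbols, and the single probe set listing C4a also lists C4b, so it gives no value for C4a.

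The animals were alcohol-preferring (P) rats, a line selectively bred for high ethanol intake. The ethanol group (n = 10 animals) could drink solutions of 15 and 30% ethanol during adolescence, and the water group (n = 10 animals) had water alone. Both groups are of the P line, each animal gave 1 array, and no label read here gives sex, exact age or the time since the last drink. Values below are log2 array signals, and all differences are ethanol minus water. Whole tissue was measured, and fewer microglia cannot be told apart from less RNA per microglial cell.

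Microglia depend on signals through the receptor Csf1r and survey the tissue with fine processes steered by receptors such as P2ry12 and Cx3cr1. They are also the main source of C1q in the brain, the recognition part of the complement complex C1. When C1q binds a target, the proteases C1r and C1s, which are made by several cell types, are activated in turn and cleave further components, and complement so deposited can mark synapses for removal by microglia.

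No member passed the threshold (limma, Benjamini-Hochberg adjustment over all probe sets, 0.05), against 0.0966% of all 20695 probe sets tested and 0.0931% of the 10746 genes with 1 probe set each. The C1 proteases C1s and C1r had the largest differences of the module, both towards lower values in ethanol, while the 3 C1q genes differed by at most 0.08. Of the 22 tested members, 19 had a negative and 3 a positive difference, with a median of -0.08 and a range of -0.41 to 0.05. Over all genes tested 49.9% of the differences were negative and the median was 0.00016. At an unadjusted p under 0.05 there were 4 members that were lower in ethanol (C1s, C1r, Tmem119 and Aif1) and 0 that were higher, where 4.77% of all genes were lower and 5.24% higher at that level.

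**Figure D1:**
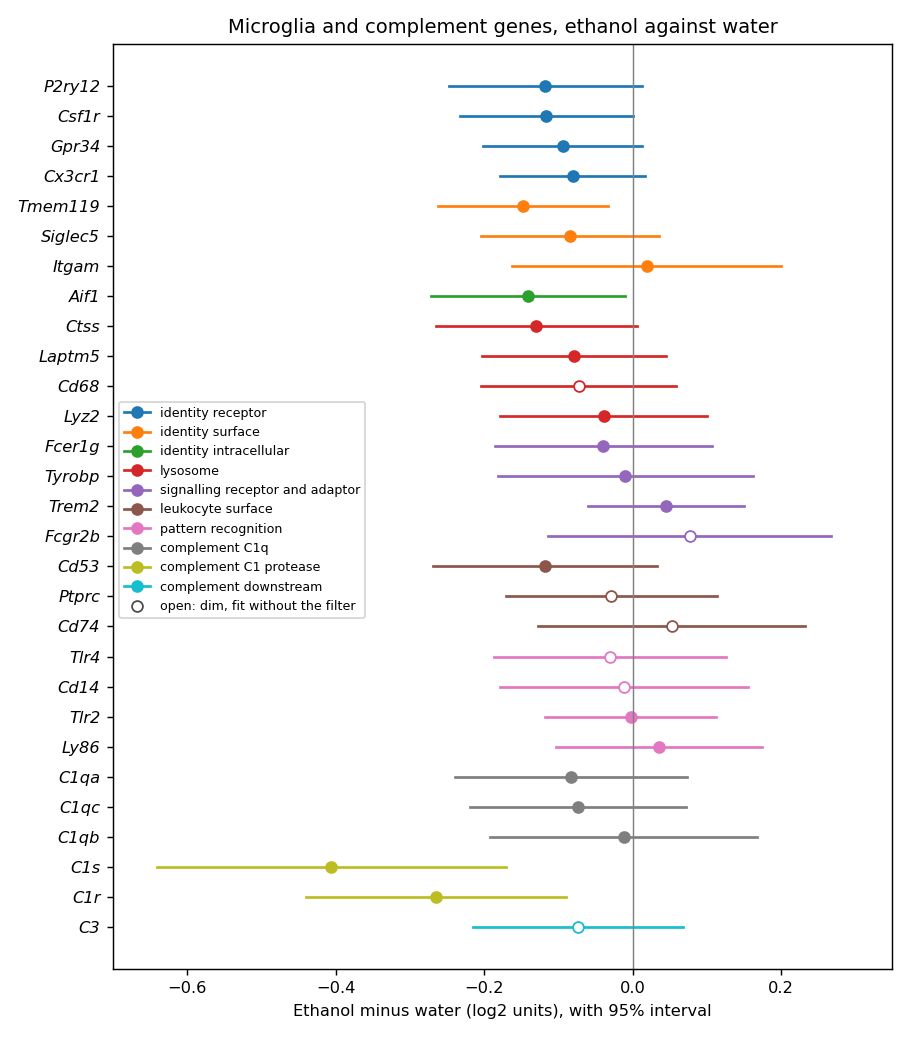
Difference between ethanol and water for the 29 measured members (x axis, log2 units, points with 95% intervals from limma), 1 row per gene, coloured by role. Open points are the 7 dim members, taken from a fit without the filter on dim probe sets. The intervals of C1s, C1r, Tmem119 and Aif1 lie below 0, and no member passed after adjustment.

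Some arrays stood apart in the markers of other cells. Water animals 17, 19 and 20 had means of 11.74, 11.99 and 11.52 over 25 medium spiny neuron markers, the genes of the striatal projection neurons, below the 12.23 of the lowest ethanol animal and the 12.50 of the lowest of the other 7 water animals. Over 17 oligodendrocyte markers the same animals had 11.55, 11.40 and 11.43, above the 11.30 of the highest of the other 7 water animals. Ethanol animal 8 had the lowest medium spiny neuron mean of its group and the highest oligodendrocyte mean, 11.54. All 17 oligodendrocyte markers were lower in ethanol with a median of -0.15, all 25 medium spiny neuron markers were higher with a median of 0.24, and 0 of either list passed, with 1 and 2 genes at an unadjusted p under 0.05. The 3' minus 5' value of 3 control transcripts, which bears on RNA quality, was 1.16 ± 0.11 in ethanol and 1.29 ± 0.15 in water (SD, n = 10 each). Median array values lay between 7.93 and 7.98. Without water animals 17, 19 and 20, which earlier work on these data saw standing apart, 14 of the 22 members were negative, with a median of -0.03, and 44.5% of all genes were. The part these array differences play in the members' values was not tested beyond such settings.

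The C1 proteases came first in size. C1s lay at 6.38, 6.69 and 7.26 (lowest, median and highest) in ethanol, against 6.78, 7.13 and 7.65 in water. The groups overlapped, with 7 of 10 ethanol animals below the lowest water animal and only ethanol animal 8 above the water mean. C1s was 0.41 lower in ethanol (1.33-fold, 95% interval -0.64 to -0.17, unadjusted p = 0.00168) and did not pass (adjusted p = 0.233). Its probe set is close to the dim level: 4 ethanol animals and 0 water animals lay under it.

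C1r, the protease that activates C1s within the complex, lay at 7.27, 7.50 and 7.73 in ethanol, against 7.34, 7.77 and 8.06 in water. All 10 ethanol animals were below the water mean, and 5 water animals were above the highest ethanol animal. The difference was -0.26 (1.20-fold, interval -0.44 to -0.09, unadjusted p = 0.00492, adjusted p = 0.289). Water animals 19, 12, 17 and 20 held the 4 highest C1r values. Without water animals 17, 19 and 20 the differences were -0.16 for C1r and -0.28 for C1s (adjusted p = 0.46 and 0.339). In that setting C1s alone of the 22 members had an unadjusted p under 0.05, as did 908 of all 10746 genes.

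C1qa, C1qb and C1qc encode the 3 chains of C1q. C1qa lay at 9.31, 9.45 and 9.79 in ethanol, against 9.31, 9.56 and 9.88 in water, and the ranges coincided almost fully. Its difference was -0.08 (interval -0.24 to 0.07, adjusted p = 0.645). C1qb lay at 8.76, 9.06 and 9.24 in ethanol, against 8.66, 9.05 and 9.63 in water, a difference of -0.01 (interval -0.19 to 0.17, adjusted p = 0.966). C1qc lay at 8.55, 8.81 and 9.03 in ethanol, against 8.67, 8.83 and 9.24 in water, a difference of -0.07 (interval -0.22 to 0.07, adjusted p = 0.665). Water animal 20 was the highest of all 20 for each of the 3 chains, and the intervals reach down to -0.24 for C1qa. Without water animals 17, 19 and 20 the differences were -0.0069, 0.06 and -0.011. Whether the proteases differ from the C1q chains in their response was not tested. C3, the component on which the complement pathways converge, was dim, at 6.13, 6.38 and 6.50 in ethanol against 6.07, 6.41 and 6.73 in water, and differed by -0.07 (adjusted p = 0.708 in the fit without the filter).

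**Figure D2:**
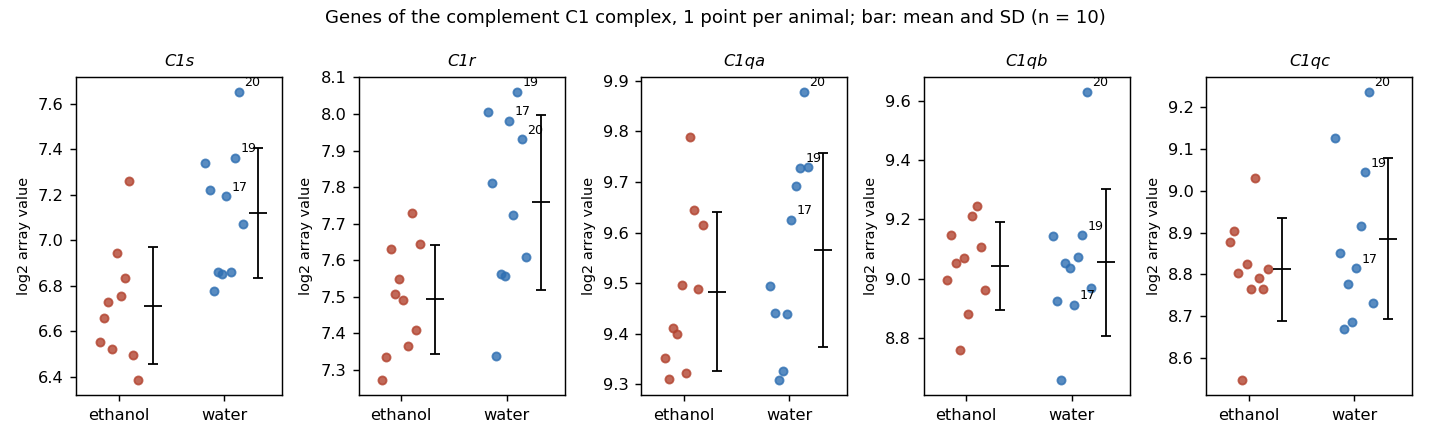
Log2 array values of the 5 genes of the complement C1 complex (y axes differ between panels), 1 point per animal, with mean and SD (n = 10) beside each group and water animals 17, 19 and 20 numbered. Of the 10 ethanol animals, 10 lie below the water mean for C1r, 9 for C1s, 8 for C1qc, 7 for C1qa and 5 for C1qb.

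The C1 genes form neighbouring groups in the genome: in the RefSeq annotation of the rat assembly GRCr8, C1qa, C1qc and C1qb follow each other on chromosome 5 and C1r and C1s on chromosome 4, with 0 annotated genes between. They also varied together between animals, as did the members at large, whose 231 pairs had a median r of 0.45 (0.34 without water animals 17, 19 and 20). Taken as deviations from each group's mean over the 20 animals, C1qb and C1qc had r = 0.80 and rho = 0.75 (permutation p = 3e-05 and 0.00024, adjusted over 6 pairs 0.00018 and 0.00144). C1r and C1s had r = 0.66 and rho = 0.69 (permutation p = 0.00123 and 0.00091, adjusted 0.00369 and 0.00273). These 2 relations kept r = 0.66 and 0.60 without the 2 animals farthest from the median of the first gene. Without water animals 17, 19 and 20 they had r = 0.69 and 0.62. Within groups r was 0.72 in ethanol and 0.83 in water for the C1q pair. For the protease pair it was 0.41 in ethanol and 0.82 in water. The permutations test against no relation, not against the variation that members share, whose pairs reached r = 0.87. Whether either pair exceeds that shared variation was not tested.

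C1qa followed C1qb with r = 0.62 and rho = 0.50 (permutation p = 0.00234 and 0.0258, adjusted 0.00468 and 0.031), and r = 0.41 without the 2 farthest animals. For C1qa with C1qc r was 0.54 and rho 0.44 (permutation p = 0.0148 and 0.056, adjusted 0.021 and 0.056), and r = 0.25 without them. Across the complex, C1r with C1qa had r = 0.49 and rho = 0.57 (permutation p = 0.0277 and 0.00957, adjusted 0.0277 and 0.0191) and C1s with C1qa r = 0.52 and rho = 0.54 (permutation p = 0.0175 and 0.0149, adjusted 0.021 and 0.0223). Without the 2 farthest animals these were r = 0.33 and 0.31. Without water animals 17, 19 and 20 C1qa had r = 0.51 with C1qb, 0.36 with C1qc, 0.37 with C1r and 0.34 with C1s. Each of these relations of C1qa was thus weaker without the 2 animals farthest in its first gene, which can differ between relations. For C1r and C1s with C1qa the r over all 20 animals, like that of C1qa with C1qc, was close to the median of all member pairs. Over all 6 pairs of a protease with a C1q chain the median r was 0.51, with pairs between 0.41 and 0.67. The 16 pairs of a protease with a gene that identifies microglia (described below) had a median of 0.40, between 0.06 and 0.73. The highest r of each set was thus at least that of C1r with C1s, whose genes are neighbours. All such pairs share their arrays and the array differences described above.

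**Figure D3:**
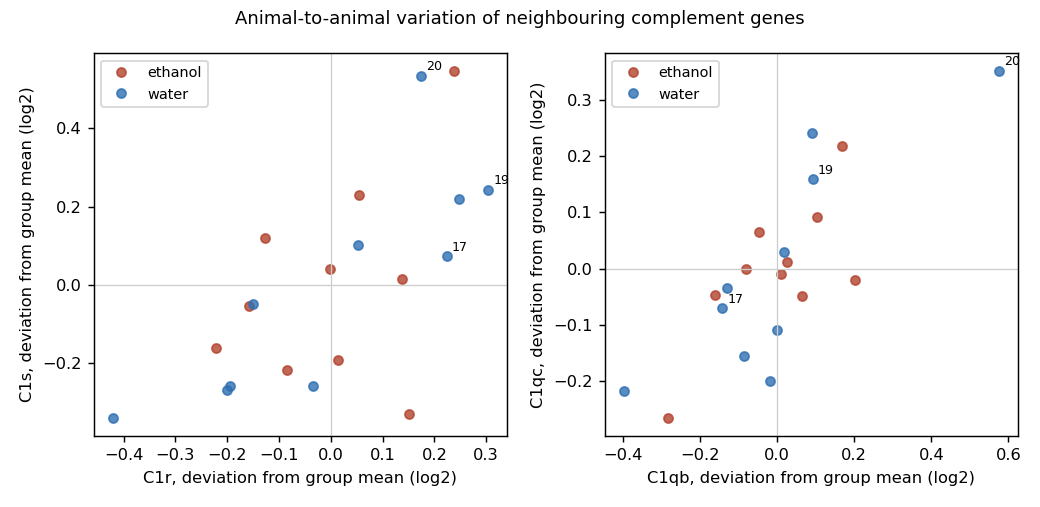
Deviation of each animal from its group's mean (log2 units) for C1s against C1r and for C1qc against C1qb, 1 point per animal, with water animals 17, 19 and 20 numbered. Both pairs rise together, with r = 0.66 for the proteases and r = 0.80 for the C1q chains.

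Since C1q and receptor genes of microglia are known targets of the transcription factor PU.1, the product of Spi1, promoters of 4 members are shown from RefSeq (GRCr8, a window of 300 bases that lies mostly before the gene's start, 5′ to 3′ on the gene's strand). They are a C1q gene with matches and one without, the C1r gene of a C1 protease, and Csf1r, the receptor microglia depend on. Capitals mark the letters GAGGAA, a core of the PU.1 motif, on either strand (read as TTCCTC on the other).

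C1qb (chr5:154407778-154408077, minus strand): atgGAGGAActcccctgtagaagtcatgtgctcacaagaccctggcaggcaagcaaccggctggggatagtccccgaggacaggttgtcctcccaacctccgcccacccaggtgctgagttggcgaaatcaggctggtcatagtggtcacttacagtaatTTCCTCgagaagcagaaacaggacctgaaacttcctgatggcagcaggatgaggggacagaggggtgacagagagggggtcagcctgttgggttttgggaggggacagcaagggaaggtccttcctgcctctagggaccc
C1qa (chr5:154419884-154420183, minus strand): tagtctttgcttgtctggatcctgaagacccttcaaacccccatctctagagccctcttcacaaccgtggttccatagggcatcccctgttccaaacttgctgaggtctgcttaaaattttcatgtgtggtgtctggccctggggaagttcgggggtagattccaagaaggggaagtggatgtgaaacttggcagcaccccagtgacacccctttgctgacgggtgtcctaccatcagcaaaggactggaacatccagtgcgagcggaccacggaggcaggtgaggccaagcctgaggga
C1r (chr4:159098763-159099062, plus strand): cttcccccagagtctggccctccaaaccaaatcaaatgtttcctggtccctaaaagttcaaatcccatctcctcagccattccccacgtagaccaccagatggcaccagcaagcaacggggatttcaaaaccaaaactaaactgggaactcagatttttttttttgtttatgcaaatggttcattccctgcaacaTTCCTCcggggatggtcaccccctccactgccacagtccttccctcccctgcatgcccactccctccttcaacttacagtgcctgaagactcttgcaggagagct
Csf1r (chr18:56834129-56834428, plus strand): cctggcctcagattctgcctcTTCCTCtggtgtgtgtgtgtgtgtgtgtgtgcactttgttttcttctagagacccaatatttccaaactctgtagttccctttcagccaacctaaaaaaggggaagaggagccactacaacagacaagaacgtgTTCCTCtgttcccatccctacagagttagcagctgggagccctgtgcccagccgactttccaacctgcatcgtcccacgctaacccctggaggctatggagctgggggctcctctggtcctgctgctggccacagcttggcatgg

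The table held promoters for 22 of the 33 members, dim ones included. GAGGAA was found in 16 of these 22 windows (72.7%), and in 9239 of all 33469 promoters of the same length (27.6%). By comparison, the letters TATAAA on either strand were in 3 of the 22 (13.6%) and in 14.2% of all. Both C1qb and Csf1r have 2 matches in their windows, C1r has 1 and C1qa 0. A match is a stretch of letters and not a shown binding site, and the array values hold no measure of PU.1 binding.

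The genes that identify microglia were lower in ethanol for 7 of 8 tested members (median -0.11), without a call. Tmem119, a membrane protein largely restricted to microglia in the brain, lay at 9.10, 9.20 and 9.35 in ethanol, against 9.11, 9.37 and 9.59 in water. All 10 ethanol animals were below the water mean, and 5 water animals exceeded the highest ethanol animal. The difference was -0.15 (interval -0.26 to -0.03, unadjusted p = 0.0137, adjusted p = 0.327). Aif1, the calcium-binding protein Iba1 used to stain microglia, lay at 9.11, 9.29 and 9.35 in ethanol, against 9.16, 9.36 and 9.80 in water. Its ethanol values again all lay below the water mean, with 5 water animals above them all, and it differed by -0.14 (interval -0.27 to -0.010, unadjusted p = 0.0361, adjusted p = 0.394). The other Aif1 probe set differed by -0.04 (adjusted p = 0.835).

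Among the receptors, Csf1r lay at 9.40, 9.44 and 9.63 in ethanol, against 9.42, 9.62 and 9.91 in water, and 9 of 10 ethanol animals were below the water mean. Csf1r differed by -0.12 (interval -0.23 to 0.00058, adjusted p = 0.413). P2ry12, the ADP receptor that steers processes towards injury, lay at 10.17, 10.43 and 10.69 in ethanol, against 10.31, 10.52 and 10.85 in water, and differed by -0.12 (interval -0.25 to 0.012, adjusted p = 0.452). Its further probe set differed by -0.05. Gpr34, a receptor for lysophosphatidylserine, lay at 7.76, 7.82 and 8.03 in ethanol, against 7.79, 7.96 and 8.19 in water (-0.09, interval -0.20 to 0.013, adjusted p = 0.463). Cx3cr1, the receptor for the neuronal chemokine fractalkine, lay at 7.41, 7.63 and 7.76 in ethanol, against 7.58, 7.68 and 7.84 in water (-0.08, interval -0.18 to 0.017, adjusted p = 0.483). In each of these 4 receptors the group ranges overlapped, with 1 to 3 ethanol animals below all water animals.

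Siglec5, a lectin that binds sialic acid, lay at 7.20, 7.30 and 7.53 in ethanol, against 7.11, 7.45 and 7.62 in water (-0.08, interval -0.20 to 0.036, adjusted p = 0.547). Itgam, the CD11b chain of complement receptor 3, was the exception among the identity genes, at 6.62, 7.13 and 7.18 in ethanol, against 6.57, 7.06 and 7.33 in water. Itgam differed by 0.02 (interval -0.16 to 0.20, adjusted p = 0.945), with 1 animal of each group under the dim level. The identity genes varied together only loosely: the median r of their 28 pairs was 0.18, given as a description over 20 arrays, with pairs between -0.39 and 0.76, and 0.12 without water animals 17, 19 and 20.

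**Figure D4:**
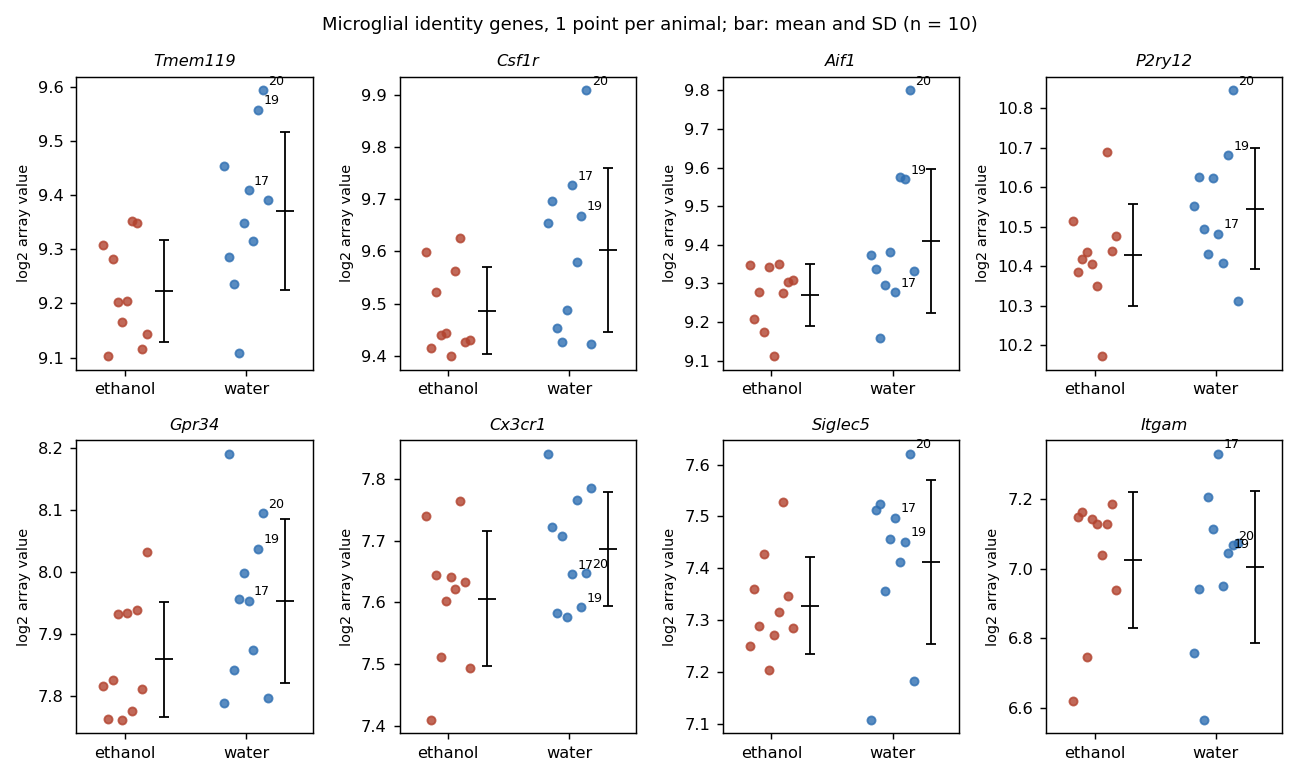
Log2 array values of the 8 tested microglial identity genes (y axes differ between panels), 1 point per animal, with mean and SD (n = 10) beside each group and water animals 17, 19 and 20 numbered. For Tmem119 and Aif1 5 water animals lie above every ethanol animal, and the ranges overlap for all 8 genes.

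As a mean over the 8 genes, the identity level was 8.53 ± 0.05 in ethanol and 8.62 ± 0.10 in water (SD, n = 10 each). Water animals 17, 19 and 20 had means of 8.66, 8.70 and 8.82, and the highest of the other 7 water animals also had 8.66. Water animal 20 held the highest value of all 20 animals in 5 of the 8 identity genes and in 14 of the 22 tested members. Without the 3 animals the identity genes were lower in ethanol for 7 of 8, with a median of -0.06 against -0.11 over all animals. Of these 8 genes 0 then had an unadjusted p under 0.05, where 908 of all 10746 genes did. Tmem119 lay at -0.08, Aif1 at -0.08 and Csf1r at -0.05 (adjusted p = 0.553, 0.56 and 0.76). Cx3cr1 differed by -0.11 in that setting (adjusted p = 0.463), more than over all animals.

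**Figure D5:**
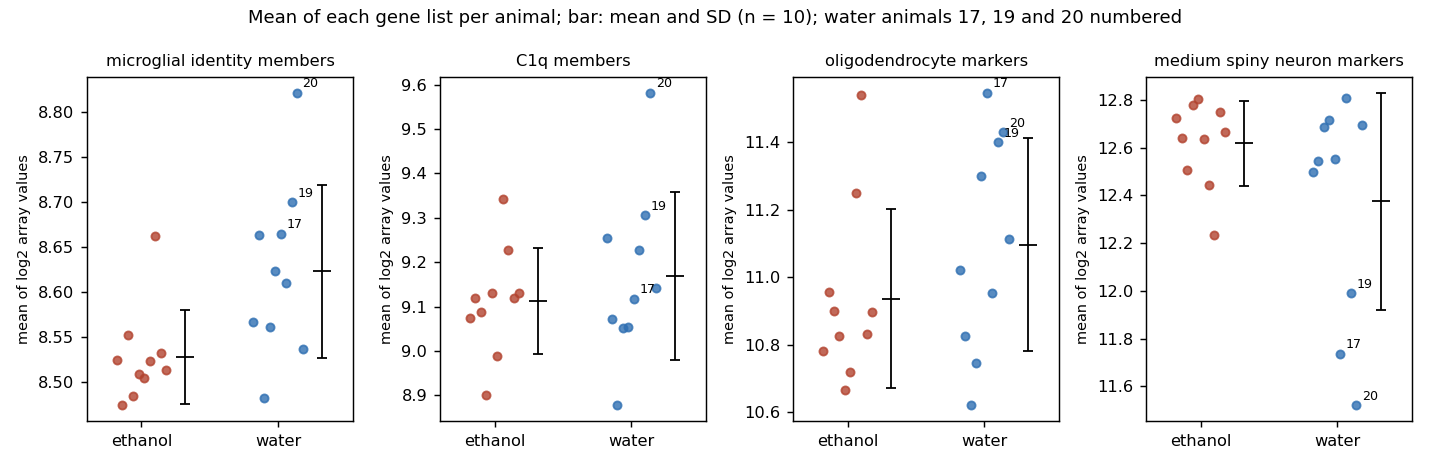
Mean log2 value per animal over 8 microglial identity genes, 3 C1q genes, 17 oligodendrocyte markers and 25 medium spiny neuron markers (y axes differ between panels), with mean and SD (n = 10) beside each group. Water animals 17, 19 and 20, numbered, lie lowest for medium spiny neurons and, with ethanol animal 8, highest for oligodendrocytes, and animals 19 and 20 lie highest for identity genes.

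All 3 tested genes of the lysosome had negative differences, and none passed. Ctss, the lysosomal protease cathepsin S, lay at 12.66, 12.78 and 12.95 in ethanol, against 12.65, 12.86 and 13.18 in water, with 4 water animals above the highest ethanol animal. Ctss differed by -0.13 (interval -0.27 to 0.0055, adjusted p = 0.429), and by -0.04 without water animals 17, 19 and 20. Laptm5, a lysosomal membrane protein, lay at 8.43, 8.55 and 8.75 in ethanol, against 8.32, 8.67 and 8.88 in water (-0.08, adjusted p = 0.586). Its further probe set differed by -0.10 (adjusted p = 0.56). Lyz2, a lysozyme, lay at 10.43, 10.69 and 10.78 in ethanol, against 10.50, 10.62 and 10.999 in water (-0.04, adjusted p = 0.828), and its ethanol median was the higher one. Without water animals 17, 19 and 20 Lyz2 turned to 0.07, and it was also positive with the medium spiny neuron or oligodendrocyte mean as a covariate (0.05 and 0.01). Cd68, a lysosomal glycoprotein raised in active phagocytes, was dim and differed by -0.07 (adjusted p = 0.693 without the filter).

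Trem2, a receptor for lipids and apolipoproteins, signals through the adaptor Tyrobp, and Fc receptors through the adaptor Fcer1g. Trem2 had the largest positive difference of the 22, at 7.91, 7.995 and 8.16 in ethanol, against 7.83, 7.91 and 8.20 in water. It differed by 0.05 (interval -0.06 to 0.15, adjusted p = 0.714), and its further probe set by 0.04. Fcer1g lay at 9.67, 9.93 and 10.05 in ethanol, against 9.69, 9.89 and 10.29 in water (-0.04, adjusted p = 0.834). For Tyrobp the values were 8.04, 8.33 and 8.49 in ethanol, against 8.03, 8.23 and 8.85 in water (-0.01, interval -0.18 to 0.16, adjusted p = 0.972). The groups overlapped for all 3 genes, with 2 water animals above every ethanol animal for Trem2, 4 for Fcer1g and 1 for Tyrobp. Without water animals 17, 19 and 20 Fcer1g and Tyrobp turned to positive differences of 0.05 and 0.07. Fcgr2b, an inhibitory Fc receptor, was dim, at 5.90, 6.45 and 6.89 in ethanol, against 6.18, 6.36 and 6.54 in water (0.08, adjusted p = 0.781 without the filter).

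Of the surface proteins shared by leukocytes, Cd53, a tetraspanin, lay at 7.84, 8.03 and 8.22 in ethanol, against 7.87, 8.18 and 8.52 in water, with 4 water animals above every ethanol animal. Cd53 differed by -0.12 (interval -0.27 to 0.033, adjusted p = 0.506), and by -0.02 without water animals 17, 19 and 20. Cd74, the invariant chain of MHC class II, and Ptprc, the phosphatase CD45, were dim and differed by 0.05 and -0.03 (adjusted p = 0.852 and 0.902 without the filter). Among receptors for microbial and danger signals, Ly86, a partner of a Toll-like receptor homologue, lay at 7.42, 7.53 and 7.75 in ethanol, against 7.19, 7.50 and 7.81 in water (0.04, interval -0.10 to 0.17, adjusted p = 0.842). Tlr2 lay at 6.81, 6.98 and 7.22 in ethanol, against 6.71, 7.04 and 7.15 in water (-0.0028, interval -0.12 to 0.11, adjusted p = 0.987), and its difference was 0.05 without water animals 17, 19 and 20. The endotoxin receptor Tlr4 and its co-receptor Cd14 were dim in all 20 animals and differed by -0.03 and -0.01 (adjusted p = 0.908 and 0.971 without the filter).

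The other genes of the complement system gave no call in the filtered fit either. Of 20 further components 5 were tested, 1 lower and 4 higher in ethanol with a median of 0.10, and 0 passed by limma, with 1 (Cfp) at an unadjusted p under 0.05. Cfp, or properdin, which stabilises the alternative pathway's convertase, averaged 7.85 ± 0.07 in ethanol and 7.72 ± 0.19 in water (SD, n = 10 each), a difference of 0.13 (adjusted p = 0.404). Masp2, a lectin pathway protease related to C1r and C1s, averaged 10.30 ± 0.08 in ethanol and 10.18 ± 0.24 in water (0.12, adjusted p = 0.536), and the collectin Colec12 differed by 0.10 (adjusted p = 0.602). Of 24 regulators and receptors 11 were tested, 7 lower and 4 higher with a median of -0.02, and 0 passed, with 2 at an unadjusted p under 0.05, Cspg4 and Susd4. Serping1, the inhibitor of C1r and C1s, averaged 6.72 ± 0.15 in ethanol and 6.67 ± 0.11 in water (0.05, adjusted p = 0.737), and was named outside the rule for named genes. The examples of smallest p were Cspg4, a proteoglycan of oligodendrocyte precursors (-0.15, adjusted p = 0.381), Susd4, a complement inhibitor (-0.13, adjusted p = 0.399), and Cr1l (0.06, adjusted p = 0.505).

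Of 51 further microglial genes 27 were tested, 18 lower and 9 higher in ethanol with a median of -0.02, and 0 passed, with 3 at an unadjusted p under 0.05. Slc2a5, a fructose transporter found in microglia, averaged 8.23 ± 0.11 in ethanol and 8.48 ± 0.25 in water (SD, n = 10 each), a difference of -0.26 (interval -0.43 to -0.09, adjusted p = 0.288). Irf8, a transcription factor of the microglial lineage, ran the other way, at 7.27 ± 0.12 in ethanol and 7.09 ± 0.15 in water (0.18, interval 0.06 to 0.31, adjusted p = 0.298). Nckap1l, an actin regulator, differed by -0.10 (adjusted p = 0.404). Ligands that sustain or call microglia had 11 tested genes, 5 lower and 6 higher with a median of 0.0068, among them Csf1, a Csf1r ligand (0.10, adjusted p = 0.485), Sirpa (0.07, adjusted p = 0.419) and Nrros (0.13, adjusted p = 0.46). Genes of activated microglia and cytokines had 11 tested of 27, 4 lower and 7 higher with a median of 0.017, with Axl at 0.05, Cd63 at -0.09 and Tspo at 0.07 (adjusted p = 0.557, 0.581 and 0.635). Of these ligands and activation genes above the dim level 0 had an unadjusted p under 0.05. The cytokine genes Il1b, Tnf, Il6 and Il1a were dim.

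One dim gene of the activation list stood out in the fit without the filter. Ch25h, the enzyme that makes 25-hydroxycholesterol and is raised in activated macrophages, lay at 6.61, 6.79 and 6.99 in ethanol, against 6.23, 6.48 and 6.64 in water. All 10 ethanol animals were above the water mean and 9 were above the highest water animal. Ch25h was 0.34 higher in ethanol (interval 0.22 to 0.47) and passed in that fit (adjusted p = 0.0185), where 0.0709% of all 31042 probe sets did. Its mean of 6.62 lies just under the dim level of 6.65, below which were 1 ethanol animal and all 10 water animals, so it was not tested with the filter. Among all 226 measured genes of the other lists it was the only one to pass in the fit without the filter.

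Markers of other cells that make some of these transcripts were measured alongside. All 15 measured markers of infiltrating leukocytes were dim, with means between 4.69 and 6.50. Of 9 perivascular macrophage markers 3 were tested, namely Lyve1, Pf4 and Mrc1, at 0.32, -0.01 and -0.03 (adjusted p = 0.464, 0.949 and 0.952), while Cd163 and F13a1 were dim. Fibroblast, meningeal and mural markers, cells that can make C1r and C1s, were lower in ethanol for 5 and higher for 14 of 19 genes, with a median of 0.04 and 0 calls, and their mean per animal ran over 7.87 to 8.22 in ethanol and 7.82 to 8.13 in water. Fn1, Rgs5 and Igf2 were their examples, at 0.16, 0.14 and -0.16 (adjusted p = 0.445, 0.452 and 0.46). Astrocyte markers were lower for 9 of 15 genes (median -0.03, 0 calls), with Gfap at -0.36, Glul at -0.09 and Fgfr3 at -0.12 (adjusted p = 0.458, 0.462 and 0.468), and their mean ran over 11.76 to 11.98 in ethanol and 11.75 to 12.12 in water. Endothelial markers were higher for 10 of 14 genes (median 0.06, 0 calls, 1 lower and 3 higher at an unadjusted p under 0.05), with Egfl7 at 0.18, Tie1 at 0.20 and Ocln at -0.10 (adjusted p = 0.225, 0.283 and 0.37). Of the blood markers Hbb alone was bright and differed by 0.20 (adjusted p = 0.488). None of the perivascular, fibroblast, astrocyte and blood markers above the dim level had an unadjusted p under 0.05, while the dim Slc6a13 (fibroblast list), Flt1 (endothelial list) and Alas2 (blood list) differed by 0.19, 0.24 and 0.21 (adjusted p = 0.329, 0.336 and 0.4663 without the filter). The part of these cell types in the values of C1r and C1s was not tested.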

How the data were processed

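Total RNA of the accumbens shell was labelled with biotin from 50 ng by a 3' labelling kit, per the labels' protocols, and hybridised to 1-colour Affymetrix arrays. The log2 values the authors deposited were made with RMA, per the submitters' processing notes, a method that removes background, puts arrays on 1 scale and gives each probe set 1 value. Its software, version and chip definition were not given in the sources used here. How many arrays there are limits the precision.

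Probe sets were named through the platform's gene table, 20758 of 20826 with 1 gene matching RefSeq (GRCr8) by identifier. Controls and the dimmest 33.3% were left out, leaving 20695 probe sets. Ethanol and water were compared with limma (3.58.1, R 4.3.3, two-sided, no covariate), adjusted over all probe sets. Dim members come from the same fit without the filter. The fit was tested on simulated data with independent noise and the same spread in both groups, which leaves out the larger spread of the water animals. Correlations used 100000 permutations over both groups together, which takes no account of the larger spread of the water animals, so their p-values are approximate. Members, 13 further lists with 272 entries, and the animals left out were chosen with earlier results of these data known. Named were members by role, with values for every measured one, and up to 3 examples of smallest p per list. Alternatives changed filter, normalization, variance model, weights, probe set choice, covariates and arrays. Another added a block for 3 runs read from the order of the deposited samples, as the labels name no batch. Lists got no set test.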

Additional observations from a re-analysis of the deposited data

Results flagged for a closer look

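Among 44 sets of 10 values (22 tested members in each group), 2 held an animal far from the others by Dixon's ratio, and chance gives about 1 in 20. Both are water animal 20. It had 8.85 for Tyrobp, where the next water animal had 8.45, and 9.63 for C1qb, where the next had 9.15. The same animal had the lowest medium spiny neuron mean of all 20 animals, 11.52.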

How the results depend on the processing

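No member passed in any of 14 alternatives or when each array was left out in turn. Of the other list genes 1 passed, Ch25h, in the fit without the filter, which alone tests it, and 0 elsewhere. C1qb, Fcer1g, Lyz2, Tlr2 and Tyrobp turned positive without water animals 17, 19 and 20, with array weights and with either marker mean as a covariate. Without the outlying arrays these 5 and C1qc did. Those arrays are water animals 12, 17 and 20, whose median correlations with the other arrays were the lowest (0.982, 0.980 and 0.972). With the 3' minus 5' covariate Itgam turned negative and Tlr2 and Tyrobp positive, and without water animals 12 and 13 Itgam and Tlr2 changed sign. Each of the 5 differences below stayed negative. When 1 array was left out, the difference ran over -0.47 to -0.35 for C1s, -0.31 to -0.23 for C1r, -0.18 to -0.12 for Tmem119, -0.14 to -0.08 for Csf1r and -0.12 to -0.05 for C1qa (smallest adjusted p = 0.101, for C1s without ethanol animal 8). Over the other alternatives the ranges were -0.43 to -0.27, -0.27 to -0.16, -0.15 to -0.08, -0.12 to -0.05 and -0.13 to -0.0069. The values nearest 0 came with the medium spiny neuron mean as a covariate for C1s and Csf1r, and without water animals 17, 19 and 20 for C1r, Tmem119 and C1qa. C1s and C1r have no value where all probe sets up to the median were left out. Over all probe sets the count of calls was 20, with 8 when the 3' minus 5' value was a covariate, 10 with the filter at the median, 38 with array weights, 47 with the medium spiny neuron covariate and 50 without water animals 17, 19 and 20. Signal over background is not in the values, so the dim level is a choice.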

Other observations

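Water animals varied more than ethanol animals. For 21 of the 22 tested members the SD was larger in water, with a median ratio of water to ethanol SD of 1.58, and for 81.2% of all genes tested it was larger, with a median ratio of 1.46. Cx3cr1 was the exception, with an SD of 0.11 in ethanol and 0.09 in water.

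Ethanol animal 8 had the highest values of its group for C1s (7.26), C1r (7.73), Csf1r (9.63), Cx3cr1 (7.76), P2ry12 (10.69) and Siglec5 (7.53), along with the highest oligodendrocyte mean of that group. Among the other tested members the same animal was highest of its group for Laptm5, Tlr2 and C1qb. Without it the C1s difference was -0.47. Water animal 14 had the lowest value of its group for C1s (6.78), C1r (7.34), C1qa (9.31), C1qb (8.66) and C1qc (8.67), and the lowest oligodendrocyte mean of that group (10.62). This was not particular to the C1 genes, as it was also lowest for Itgam, Aif1, Lyz2, Trem2, Fcer1g, Tlr2 and Ly86.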
